A study of Mus musculus with 29 samples.

Results

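This account covers 8 genes of the phagocyte surface and lysosome in mouse brain tissue and cells after inhibition of miR-99b-5p, namely Marco, Msr1, Cd36, Cd68, Lyz2, Mrc1, Stab1 and Cd163, out of 48709 gene identifiers in each count table. All 8 symbols were matched to 1 Ensembl identifier each. The genes were chosen by name with the co-culture results known, because Marco, Lyz2 and Cd68 stood out there, so that the co-culture differences of the 8 genes are given as a description with no test, and their tests rest on the prefrontal cortex (PFC) and the microglia. RNA-seq was made in 29 libraries of 3 experiments, each comparing anti-miR-99b, a locked nucleic acid (LNA) oligonucleotide against miR-99b-5p, with sc-control, an LNA of scrambled sequence, both packed in lipid nanoparticles. The PFC libraries came from male C57BL/6J mice aged 3 months, dissected 5 days after an injection into the PFC of each hemisphere (anti-miR-99b n = 3, sc-control n = 3). The microglia were primary cells of CD1 pups of postnatal day 1, grown with L929-conditioned medium, shaken off the glial layer and treated for 2 days (n = 4 and n = 4). For the co-cultures, such microglia were treated for 2 days and then kept for 2 days with cortical neurons of CD1 embryos of day 17.5, and RNA of both cells together was sequenced (n = 7 for microglia given anti-miR-99b and n = 8 for those given sc-control). Medium conditioned by L929 fibroblasts holds the macrophage growth factor CSF1, which limits these cells as a model of microglia in tissue. Whether libraries of a group came from separate cultures is not stated for the cells, so that p-values there measure the spread between libraries.

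Scavenger receptors are surface proteins with which macrophages and microglia bind modified lipoproteins, microbes, debris and dying cells before taking them up. Marco and Msr1 are class A receptors with a collagen-like stalk, Cd36 is a class B receptor for lipids and thrombospondin, Mrc1 is the mannose receptor, Stab1 is an endocytic receptor of the stabilin family, and Cd163 takes up haemoglobin bound to haptoglobin. Cd68 is a glycoprotein of the late endosome and lysosome, and Lyz2 is the lysozyme of macrophages and neutrophils, which cuts bacterial cell walls. In the brain, Mrc1 and Cd163 are known as genes of macrophages at vessels and meninges more than of microglia in the parenchyma.

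The oligonucleotide was aimed at miR-99b-5p, whose mature sequence (RefSeq, GRCm38.p6, chr17:17830194-17830215, plus strand) is shown because its seed, bases 2 to 8 in capitals, is what pairs with a target.
mmu-miR-99b-5p: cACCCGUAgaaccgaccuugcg
The 7 bases TACGGGT that pair with this seed were in the 3' UTR of none of the 8 genes (GENCODE M21). Of 21045 protein-coding genes with a 3' UTR 1.19% held them there. The absence says only that these letters were not found in the 3' UTR. Over all annotated transcripts, Marco held 1 match outside the 3' UTR and each other member held 0. Whether that match is bound was not tested.

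The promoters of Marco, Cd68 and Lyz2 are shown because these genes differed together in the co-culture. Each ends before the gene start of RefSeq or of GENCODE, whichever lies further upstream, so that the stretch of Lyz2 is shorter. They are written 5' to 3' on the minus strand, on which all 3 genes lie (RefSeq, GRCm38.p6: chr1:120505025-120505274 for Marco, chr11:69666171-69666420 for Cd68 and chr10:117282322-117282522 for Lyz2). Where it occurs, the 6-letter PU box GAGGAA, a core bound by the macrophage factor PU.1, is in capitals.
Marco: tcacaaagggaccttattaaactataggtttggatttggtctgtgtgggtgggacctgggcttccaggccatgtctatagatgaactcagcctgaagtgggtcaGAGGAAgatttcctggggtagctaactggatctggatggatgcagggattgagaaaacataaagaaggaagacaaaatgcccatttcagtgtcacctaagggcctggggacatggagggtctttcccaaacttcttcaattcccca
Cd68: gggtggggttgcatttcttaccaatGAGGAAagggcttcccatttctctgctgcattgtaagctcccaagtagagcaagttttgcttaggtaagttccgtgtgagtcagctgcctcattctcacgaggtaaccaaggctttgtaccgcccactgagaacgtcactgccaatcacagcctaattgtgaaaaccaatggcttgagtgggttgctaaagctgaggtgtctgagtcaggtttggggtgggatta
Lyz2: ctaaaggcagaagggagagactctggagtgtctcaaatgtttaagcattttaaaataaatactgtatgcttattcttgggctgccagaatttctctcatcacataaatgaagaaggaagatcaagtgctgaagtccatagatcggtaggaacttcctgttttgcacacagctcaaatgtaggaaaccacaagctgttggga
In the 250 bases before the RefSeq start, searched on both strands as GAGGAA and TTCCTC, the box lay 146 bases upstream in Marco and 225 bases upstream in Cd68, and Lyz2 held none. Of the 7 genes with a promoter in the table (Msr1 had no entry), 4 held the box, Mrc1 and Stab1 being the others. It was in 23.3% of all 32851 promoters. The count of 4 was not tested, and it says only where these letters occur.

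Lyz2 (ENSMUSG00000069516, chr10:117277331-117282321 of GRCm38) has a near copy, Lyz1 (ENSMUSG00000069515), in the neighbouring stretch chr10:117287797-117292868. Over the coding length of 447 bases the copies differ at 22 positions and are 95.1% identical. The 50 coding bases with the most differences that lie within 1 exon are shown, with the 8 differing bases in capitals, because reads here were 50 bases long (exon 1, GRCm38, minus strand: chr10:117282117-117282166 for Lyz2 and chr10:117292713-117292762 for Lyz1).
Lyz2: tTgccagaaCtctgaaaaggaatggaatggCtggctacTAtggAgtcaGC
Lyz1: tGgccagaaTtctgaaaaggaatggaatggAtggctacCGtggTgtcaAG
Of the 1267 different stretches of 50 bases in the Lyz2 transcript, 15.4% also occur in Lyz1, so that part of the reads cannot be assigned. Lyz1 itself was low: its level in the sc-control libraries, as reads per library scaled to a common total (CPM), was 23.8 ± 1.47 CPM (SD, n = 4) in the microglia and 0.232 ± 0.0582 CPM (SD, n = 8) in the co-culture. Summing both genes gave the same log2 fold change (log2FC) of 0.03 in the microglia and 0.65 in the co-culture as Lyz2 alone. Marco (ENSMUSG00000026390, chr1:120474538-120505024), Msr1, Cd36, Cd68 and Mrc1 shared no stretch of 50 bases with another gene. Stab1 shared 0.69% of its stretches, and its exons overlap 112 bases of Nt5dc2 on the opposite strand. Cd163 shared 0.109%.

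Each library held between 21324156 and 37901110 reads on genes, and no library was a copy of another, with a chi-square per degree of freedom of at least 1.48 between libraries of a group. CPM was computed over the reads on tested genes with edgeR's TMM scaling, and levels are given as mean ± SD. In the sc-control libraries the summed level of 20 microglia markers was 18125 CPM in the microglia, 839 CPM in the PFC and 259.7 CPM in the co-culture. None of the 20 was at 0 in every library, but Siglech, a marker of brain microglia, was too low to be tested in both cultures, at 0.183 ± 0.104 CPM (SD, n = 4) in sc-control microglia against 19.1 ± 1.68 CPM (SD, n = 3) in the sc-control PFC. Sall1, a transcription factor of microglia, was almost as high in the co-culture (29.3 ± 0.696 CPM, SD, n = 8) as in the microglia (37.6 ± 3.39 CPM, SD, n = 4).

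Before the effect of the anti-miR, the 8 genes were compared with each other in the sc-control libraries, as CPM per kb of exon. In the microglia the order was Lyz2 (20991 ± 940.5 CPM per kb, SD, n = 4), Cd68 (1249 ± 31.6), Msr1 (272 ± 3.88), Stab1 (246 ± 7.91), Cd36 (84.6 ± 3.08), Marco (73.9 ± 2.60), Mrc1 (38.5 ± 2.19) and Cd163 (0.0965 ± 0.00720). Each gene's lowest library was above the highest library of the gene next in the order. Lyz2 alone took between 2.68% and 2.92% of all reads on genes in these 8 libraries.

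In the co-culture the order was Lyz2 (110 ± 13.1 CPM per kb, SD, n = 8), Marco (34.7 ± 3.69), Cd68 (10.4 ± 1.10), Cd36 (1.99 ± 0.150), Stab1 (1.04 ± 0.0753), Msr1 (0.665, with 0.863 in its highest library), Mrc1 (0.135 ± 0.0327) and Cd163 (0.0162 ± 0.0128). Marco thus stood above Cd68, and Msr1 below Stab1, where in the microglia Msr1 stood above Stab1 and Marco below Cd36. In the PFC the order was Lyz2 (27.3 ± 14.6 CPM per kb, SD, n = 3), Cd68 (9.98 ± 2.95), Stab1 (2.60 ± 0.407), Mrc1 (0.820 ± 0.111), Cd163 (0.350 ± 0.0693), Cd36 (0.230 ± 0.0408) and Msr1 (0.111 ± 0.0430). No neighbours in either order overlapped between their libraries. Marco had 0 reads in all 6 PFC libraries, which allows up to 0.123 CPM in the shallowest of them (3 reads, counting error only).

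The fall from the microglia cultures to the mixed culture was unequal among the genes. The summed microglia markers were 69.8-fold higher in the sc-control microglia than in the sc-control co-cultures. Msr1 was 410-fold, Mrc1 285-fold, Stab1 238-fold, Lyz2 191-fold, Cd68 120-fold and Cd36 42.5-fold higher in the microglia, and Marco only 2.13-fold, at 142 ± 5.00 CPM (SD, n = 4) against 66.7 ± 7.10 CPM (SD, n = 8).

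Set against the summed markers of the same library (geometric mean over libraries), Marco was 0.785% of the marker sum in the microglia and 25.6% in the co-culture. Cd36 stood at 1.68% and 2.75%. The other genes went the opposite way, with Msr1 at 9.53% and 1.61%, Lyz2 at 152% and 55.4%, Cd68 at 8.66% and 5.05%, Stab1 at 14.0% and 4.10% and Mrc1 at 1.35% and 0.322%. The experiments differ in cells, culture and library set at once, so that these levels are a description with no test, and RNA from more than 1 cell type cannot be told apart in the mixed culture.

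**Figure D1:**
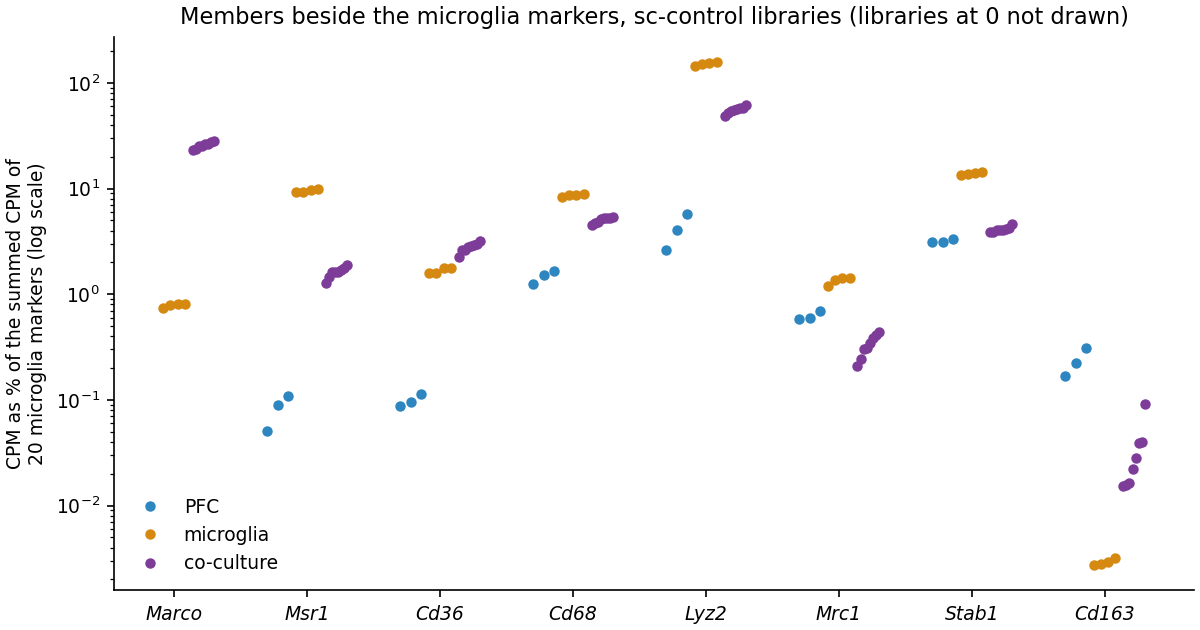
CPM of each of the 8 genes as a percentage of the summed CPM of 20 microglia markers in the same library (y axis, log scale), for the sc-control libraries of the PFC (blue, n = 3), the microglia (orange, n = 4) and the co-culture (purple, n = 8). Each point is a library, and libraries with 0 reads are not drawn. Marco lies at 0.785% in the microglia and 25.6% in the co-culture, while Lyz2, Msr1 and Stab1 lie lower in the co-culture than in the microglia.

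In primary microglia Marco was the member that rose with anti-miR-99b, by 1.16-fold. Its level was 146, 144, 135 and 144 CPM in the sc-control libraries and 183, 156, 160 and 163 CPM in the anti-miR-99b libraries. The groups did not overlap, and anti-miR-99b replicate 1 was the highest. The means were 165 ± 12.0 CPM (SD, n = 4) and 142 ± 5.00 CPM (SD, n = 4). Its log2FC, given here with ± its standard error (SE), was 0.22 ± 0.04 (SE; edgeR adjusted p = 0.0232), higher in 4 of 4 libraries, and the exact permutation test of the means gave p = 0.0286, two-sided, the smallest that 4 against 4 allows. With an adjusted p under 0.1 and a log2FC beyond 0.1, 0.435% of the 14953 genes tested were called higher and 0.0535% lower, and 1.65% were higher with no overlap between the groups, beside 1 of the 8 members on either count.

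The rise of Marco was near equal in both sequencing lanes, at a log2 difference of 0.22 in lane 5 and 0.21 in lane 6 (2 against 2 libraries in each). Its call was lost when sc-control replicate 4 (edgeR adjusted p = 0.198), sc-control replicate 6 (edgeR adjusted p = 0.101) or anti-miR-99b replicate 5 (edgeR adjusted p = 0.168) was left out. The log2FC lay between 0.17 and 0.24 over the libraries left out in turn, and was lowest without anti-miR-99b replicate 1, the highest library. The 20 microglia markers summed to 18062 to 18777 CPM after anti-miR-99b and to 17704 to 18596 CPM after sc-control, a ratio of means of 1.02 (exact permutation p = 0.229, two-sided). Relative to this sum Marco differed by 0.19 on the log2 scale, above all controls in 4 of 4 libraries. The share of all genes that did so on this scale was not computed. The 8 border macrophage markers summed to 820 to 899 CPM and 759 to 841 CPM, a ratio of 1.08 (exact permutation p = 0.0571, two-sided), and their part in the result was not tested.

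No other member passed the test in the microglia. Cd68 was 1570 ± 39.7 CPM (SD, n = 4) in the controls and 1628 ± 32.1 CPM (SD, n = 4) in the treated libraries, with a log2FC of 0.05 ± 0.03 (SE; edgeR adjusted p = 0.805). Lyz2 stood at 27624 ± 1238 CPM in the controls and 28148 ± 419 CPM in the treated libraries, a log2FC of 0.03 ± 0.03 (SE; edgeR adjusted p = 0.943). For Msr1, Cd36, Mrc1 and Stab1 the log2FC lay between -0.02 and 0.03, with standard errors of 0.02 to 0.03 and edgeR adjusted p-values of at least 0.943. Cd163 had 11 to 20 reads per library and a log2FC of 0.05 ± 0.24. The median log2FC was 0.03 over the 8 members and 0.0025 over all genes tested.

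**Figure D2:**
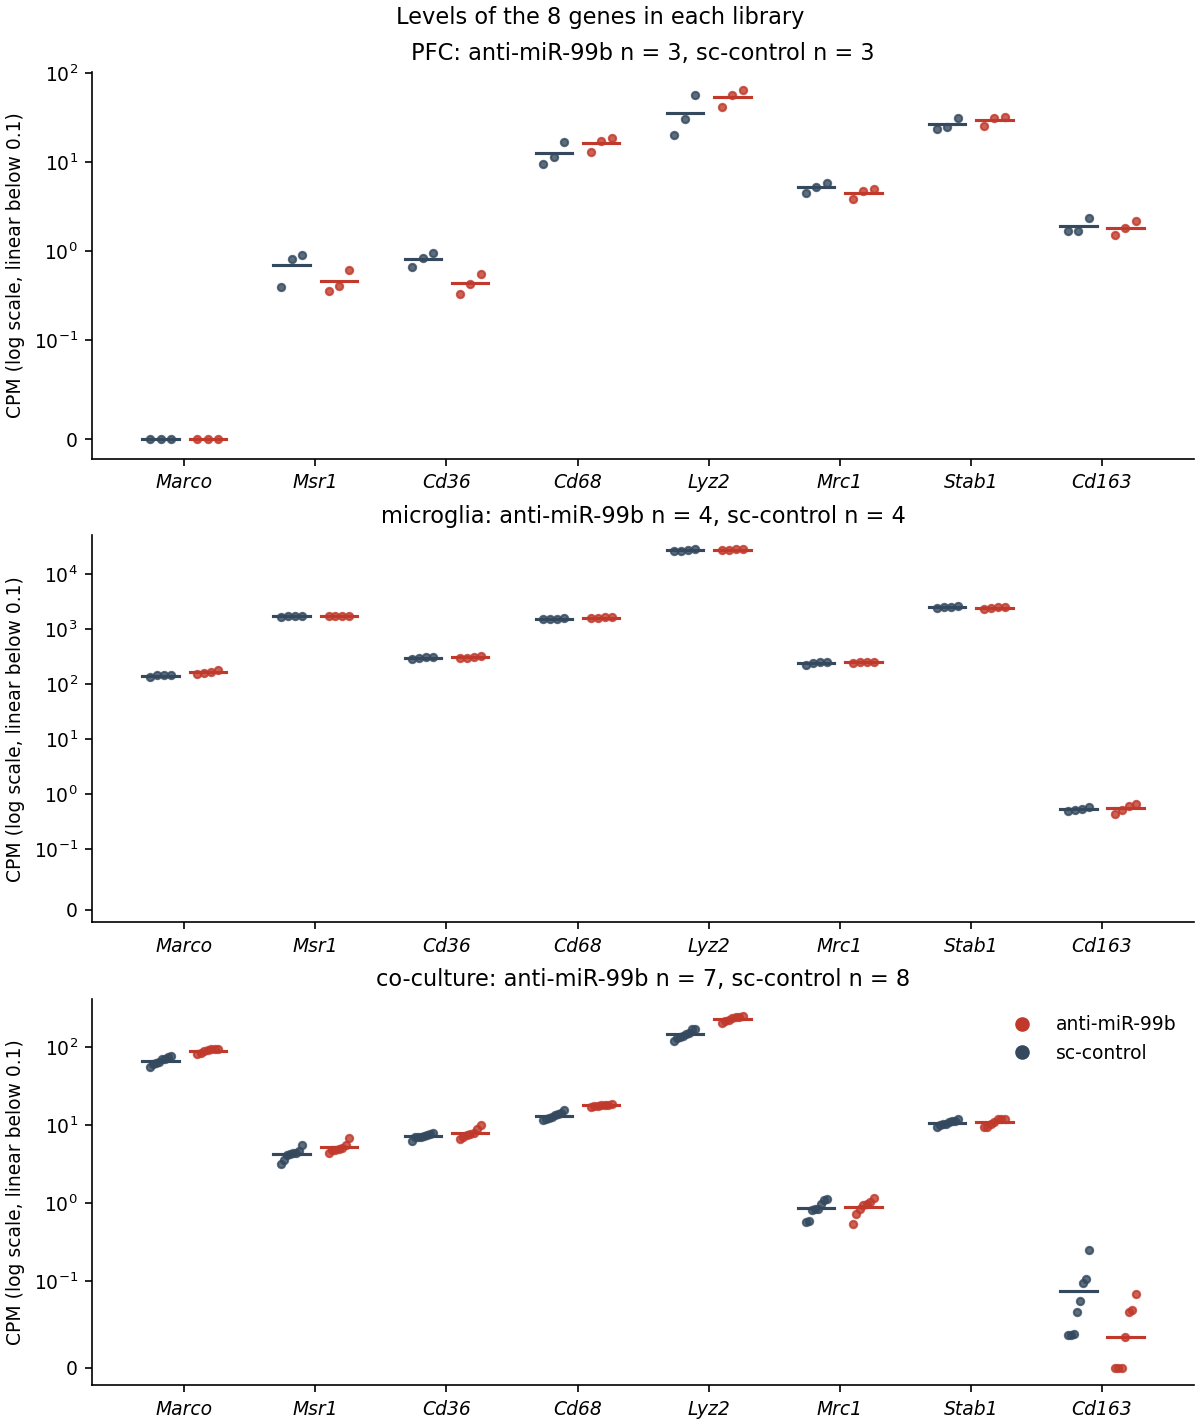
Level of each of the 8 genes in each library as CPM (y axis, log scale above 0.1 and linear below) in the PFC, the microglia and the co-culture. Points are libraries with anti-miR-99b (red) or sc-control (dark blue), and bars are group means. In the microglia the Marco libraries run from 135 to 146 CPM and from 156 to 183 CPM, and in the co-culture Marco, Cd68 and Lyz2 of the groups do not overlap.

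In the co-culture, the contrast on which the genes were picked, Lyz2, Cd68 and Marco were higher where the microglia had been given anti-miR-99b, and no test of them is given. Lyz2 was 199 to 247 CPM (median 234) in the 7 anti-miR-99b libraries and 119 to 168 CPM (median 143) in the 8 sc-control libraries. Its means were 227 ± 16.9 CPM (SD, n = 7) and 144 ± 17.2 CPM (SD, n = 8), a log2FC of 0.65 ± 0.06. This was the largest difference among the members, and the groups did not overlap.

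Marco was 81.3 to 94.6 CPM (median 91.5) with anti-miR-99b and 55.9 to 75.8 CPM (median 66.3) with sc-control. The means of 89.7 ± 5.05 CPM (SD, n = 7) and 66.7 ± 7.10 CPM (SD, n = 8) gave a log2FC of 0.42 ± 0.05. Cd68, the lysosomal glycoprotein, was 16.9 to 18.8 CPM (median 17.9) with anti-miR-99b and 11.5 to 15.6 CPM (median 13.0) with sc-control, a log2FC of 0.43 ± 0.05. All 7 anti-miR-99b libraries were above all 8 controls for these genes. Among the 16193 genes tested, 0.846% were called higher and 0.556% lower at an adjusted p under 0.05 and a log2FC beyond 0.1, and 0.303% were higher with no overlap, as 3 of the 7 members in the fit were. As the members were selected on this contrast, nothing can be read from that count.

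The remaining members lay outside this group. Msr1, the next, was 4.40 to 6.81 CPM (median 4.93) with anti-miR-99b and 3.13 to 5.47 CPM (median 4.28) with sc-control, a log2FC of 0.29 ± 0.10. Cd36 differed by 0.13 ± 0.07, Mrc1 by 0.04 ± 0.17 and Stab1 by 0.02 ± 0.06, and their groups overlapped. Mrc1 was at 15 to 35 reads per library. Cd163 was at 0 to 6 reads per library and was not tested. Its 0 counts in 3 anti-miR-99b libraries allow up to 0.129 CPM in the shallowest of these.

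Each sequencing lane of the co-culture held both treatments. For Lyz2 the log2 difference was 0.43 in lane 4 (2 libraries against 2), 0.70 in lane 5 (1 against 3), 0.91 in lane 6 (1 against 1) and 0.65 in lane 7 (3 against 2). For Marco it was 0.29, 0.38, 0.54 and 0.42 in the same lanes, and for Cd68 0.36, 0.47, 0.49 and 0.38. Every anti-miR-99b library was above every control for these 3 genes, so that the same direction in all 4 lanes follows from this and adds nothing. Msr1 was at 0.02, 0.39, 0.68 and 0.14 in the same lanes. Cd36 was higher in 3 of 4 lanes and at -0.02 in lane 5.

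**Figure D3:**
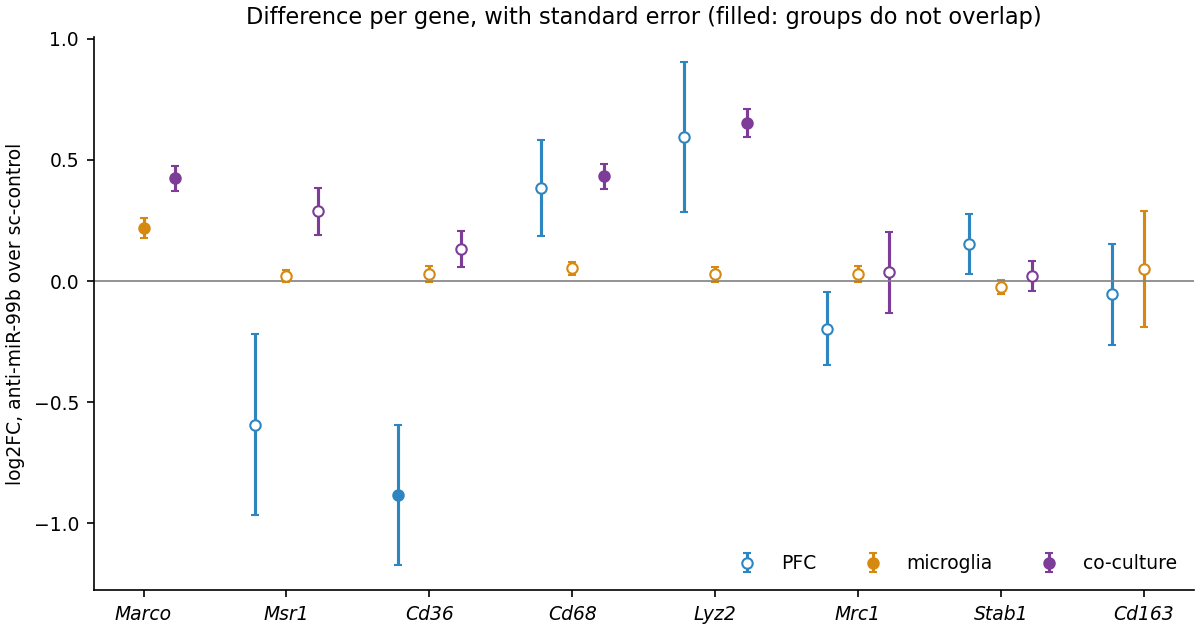
log2FC of anti-miR-99b over sc-control (y axis) with its standard error for each gene in the PFC (blue), the microglia (orange) and the co-culture (purple). Filled points mark genes whose groups do not overlap. Lyz2 is at 0.65 in the co-culture and 0.03 in the microglia, Marco is at 0.42 and 0.22, and Cd36 in the PFC is at -0.88.

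Markers of microglia were also higher in these co-cultures. Their summed level was 276 to 315 CPM with anti-miR-99b and 241 to 292 CPM with sc-control, with means of 296 ± 12.6 CPM (SD, n = 7) and 259.7 ± 18.6 CPM (SD, n = 8), a ratio of 1.14. Of the 19 markers tested 17 were higher, and 8 passed the test, all of them higher, with a log2FC from 0.25 to 0.70. Those with the smallest p were C1qc (0.33 ± 0.05), a chain of the complement component C1q, Csf1r (0.34 ± 0.05), the CSF1 receptor, C1qa (0.34 ± 0.06), another chain of C1q, and Trem2 (0.70 ± 0.11), a lipid receptor of microglia. The log2FC of Marco, Cd68 and Lyz2 lay within the range of these 8 markers and above the median of 0.247 over all 19 tested. In bulk RNA more cells of a type and more RNA per cell cannot be told apart. The marker list was chosen with earlier results of these data known, so that the 8 of 19 is a description.

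Relative to the summed microglia markers of the same library, the log2 difference between the groups was 0.47 for Lyz2, 0.25 for Cd68 and 0.24 for Marco. The groups still did not overlap for these genes, on the contrast that chose them, and the share of all genes on this scale was not computed. The log2 difference was 0.11 for Msr1, -0.07 for Cd36, -0.15 for Mrc1 and -0.17 for Stab1. In the mixed culture the marker sum need not come from microglia alone, as Sall1 was almost as high there as in the microglia. Sums over fewer markers were not tried, so that these differences hold for this list only. Border macrophage markers summed to 15.2 to 17.7 CPM with anti-miR-99b and 9.97 to 15.1 CPM with sc-control, a ratio of 1.38. Of this list 3 of 8 were high enough to be tested and 1 passed, Ms4a7 (log2FC 0.50 ± 0.07), a membrane protein of macrophages. Their part in the result was not tested. Neuron markers had a ratio of 0.994 and astrocyte markers of 0.987.

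**Figure D4:**
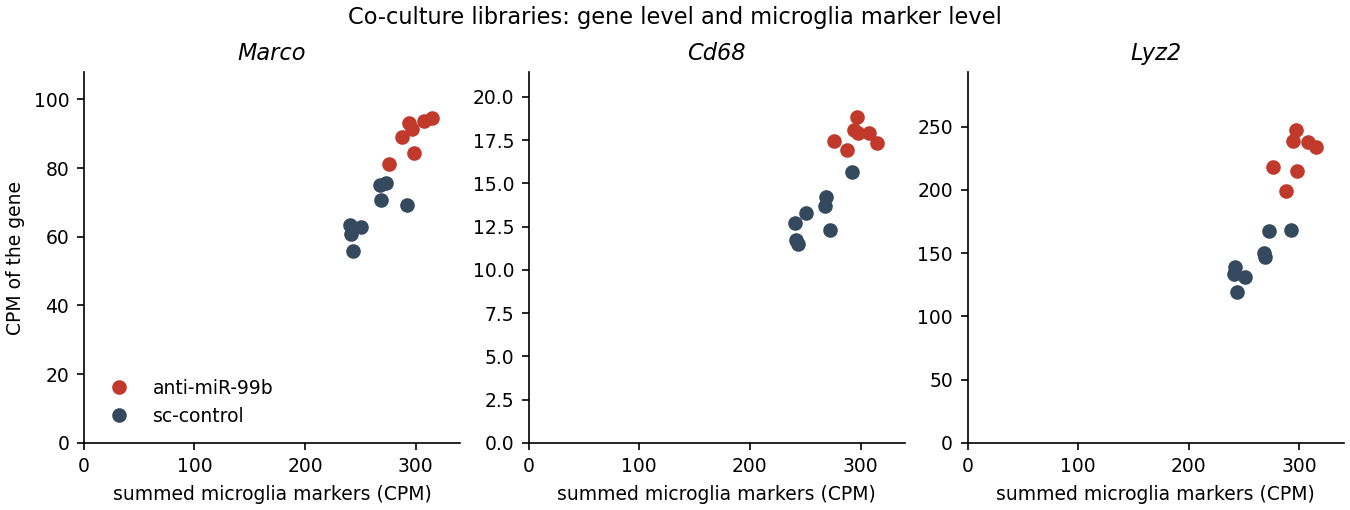
Level of Marco, Cd68 and Lyz2 (y axis, CPM) against the summed level of 20 microglia markers (x axis, CPM) in the 15 co-culture libraries with anti-miR-99b (red, n = 7) or sc-control (dark blue, n = 8). The marker sums of the groups overlap between 276 and 292 CPM, and the anti-miR-99b libraries lie above the controls for each gene.

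After the group means were removed, the variation among the 15 co-culture libraries was compared with that of 11508 genes of at least 5 CPM on average, as a description over libraries that share depth and cell makeup. Marco and Lyz2 varied together (Pearson r 0.79, Spearman rho 0.69), Lyz2 and Cd68 less closely (0.61 and 0.51), and Marco and Cd68 least (0.50 and 0.40). Lyz2 was closest to Cstb (r 0.91), an inhibitor of cathepsins, Mpeg1 (r 0.90), a pore-forming protein of macrophages, and Gm49339 (r 0.89). Marco was closest to Rpl32 (r 0.87), a ribosomal protein, Ly9 (r 0.87), a surface receptor of leukocytes, and Ifnar2 (r 0.84), a subunit of the type I interferon receptor. Cd68 was closest to Elovl1 (r 0.82), which lengthens fatty acids, Vav1 (r 0.82), a signalling protein of blood cells, and Selenok (r 0.77), a selenoprotein. For Vav1 the Spearman rho was 0.54. These closest genes are the extremes of a search of 11508 genes over only 15 libraries, where high values of r can arise by chance. They were not tested, so that no link to Marco, Lyz2 or Cd68 can be read from them.

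In the PFC no member passed the test. With an adjusted p under 0.1 and a log2FC beyond 0.2, 0.0864% of the 17364 genes tested were called higher and 0% lower. Of the 7 members tested 3 were higher, with a median log2FC of -0.05, beside 0.0025 over all genes. At an unadjusted p under 0.05 there was 1 member, Cd36, beside 1326 of all 17364 genes.

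Lyz2 was at 65.3, 56.6 and 41.3 CPM in the 3 treated mice and at 20.1, 30.6 and 57.2 CPM in the 3 controls. The groups overlapped, since sc-control replicate 4 was above 2 of the 3 treated mice. The log2FC was 0.60 ± 0.31 (SE; edgeR adjusted p = 0.66). In lane 6, with 2 mice of each group, the log2 difference was 1.28, and in lane 7, with 1 of each, it was -0.46. Without sc-control replicate 4 the log2FC of Lyz2 was 1.11 (edgeR adjusted p = 0.0514), which passes the threshold. That fit called 187 genes in all, against 15 with every library kept. With no filter on low counts, the log2FC of 0.58 for Lyz2 passed as well (edgeR adjusted p = 0.00237), among 412 genes called.

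Cd68 had the same pattern, at 17.5, 18.6 and 13.1 CPM in the treated mice and at 9.55, 11.4 and 16.7 CPM in the controls, with a log2FC of 0.38 ± 0.20 (SE; edgeR adjusted p = 0.66). Its lane values had opposite signs too, at 0.76 in lane 6 and -0.34 in lane 7. Summed microglia markers were 763, 749.8 and 1005 CPM in the controls and 1003, 1060 and 971 CPM in the treated mice, a ratio of 1.21 (exact permutation p = 0.3, two-sided, where 3 against 3 cannot go below 0.1), and sc-control replicate 4 was again the highest control. Of the 20 markers 18 were higher and none passed the test. Monocyte and neutrophil markers, of which 6 of 8 were tested and all 6 were higher, summed to 7.31 to 9.51 CPM and 3.91 to 7.31 CPM, a ratio of 1.55 (exact permutation p = 0.2, two-sided). Their part in the values of Lyz2 and Cd68 was not tested. Relative to the summed microglia markers of the same mouse, the log2 difference was 0.43 for Lyz2 and 0.13 for Cd68, and the groups overlapped for both.

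Cd36 was lower in all 3 treated mice, at 0.327, 0.429 and 0.559 CPM (8, 12 and 17 reads) against 0.67, 0.846 and 0.961 CPM (24, 24 and 33 reads). The groups did not overlap, which held for 5.81% of genes in this direction and for 7.52% of genes that were higher. The log2FC was -0.88 ± 0.29 (SE; edgeR adjusted p = 0.581), so that the difference did not pass. Msr1, at 10 to 31 reads, had a log2FC of -0.59 ± 0.37 (SE; edgeR adjusted p = 0.691). In the treated mice and in the controls, Mrc1 was at 4.57 ± 0.603 CPM (SD, n = 3) and 5.22 ± 0.708 CPM (SD, n = 3), Stab1 at 29.8 ± 3.58 CPM and 26.8 ± 4.19 CPM, and Cd163 at 1.83 ± 0.33 CPM and 1.91 ± 0.379 CPM, with edgeR adjusted p-values of at least 0.738. Relative to the summed microglia markers, the log2 difference was -1.21 for Cd36, -0.84 for Msr1, -0.48 for Mrc1, -0.34 for Cd163 and -0.12 for Stab1, whose log2FC without this scaling was 0.15. All 3 treated mice were below all controls on this scale for Cd36 and Mrc1, while the groups overlapped for Mrc1 without this scaling. As the marker sum itself had a ratio of 1.21, a gene with no difference would also come out lower on this scale. The share of all genes with no overlap on this scale was not computed, and these ratios were not tested.

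Other phagocyte genes were counted in lists by role. In the microglia 1 of 17 apoptotic cell receptors and bridges passed the test, Thbs1 (log2FC 0.30 ± 0.07, edgeR adjusted p = 0.0571), a ligand of Cd36 and integrins, which was higher. None passed among the 17 other scavenger receptors, the 18 genes of the engulfment machinery, the 20 phagosome and lysosome genes, the 14 lipid handling genes and the 15 macrophage regulators tested, whose median log2FC lay between -0.01 and 0.03. In the PFC no gene of these lists passed, with edgeR adjusted p-values of at least 0.443 in the lists of phagocyte genes.

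In the co-culture 7 of 20 phagosome and lysosome genes passed, all of them higher, beside the 0.846% of all genes. Those with the smallest p were Ctsz (log2FC 0.27 ± 0.05), Ctss (0.31 ± 0.06) and Ctsb (0.11 ± 0.02), which are cathepsins, the proteases of the lysosome, and Atp6v0d2 (1.18 ± 0.24), a subunit of the proton pump that acidifies it. The median log2FC of the list was 0.06. As the lists were chosen with earlier results of these data known, the count of 7 is a description. Microglia markers were higher in the same libraries, with 8 of 19 past the test, and their part in this count was not tested. Of 15 other scavenger receptors tested 1 passed, Cd14 (0.50 ± 0.07), a receptor for lipopolysaccharide, while 5 of the 15 were higher in all. Of 12 lipid handling genes 1 passed, Lpl (0.17 ± 0.04), the lipoprotein lipase. No gene passed among 16 apoptotic cell receptors and bridges (5 higher), 18 genes of the engulfment machinery (12 higher) and 15 macrophage regulators (11 higher). The summed phagosome and lysosome genes had a ratio of 1.05 and the summed other scavenger receptors of 0.957.

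**Figure D5:**
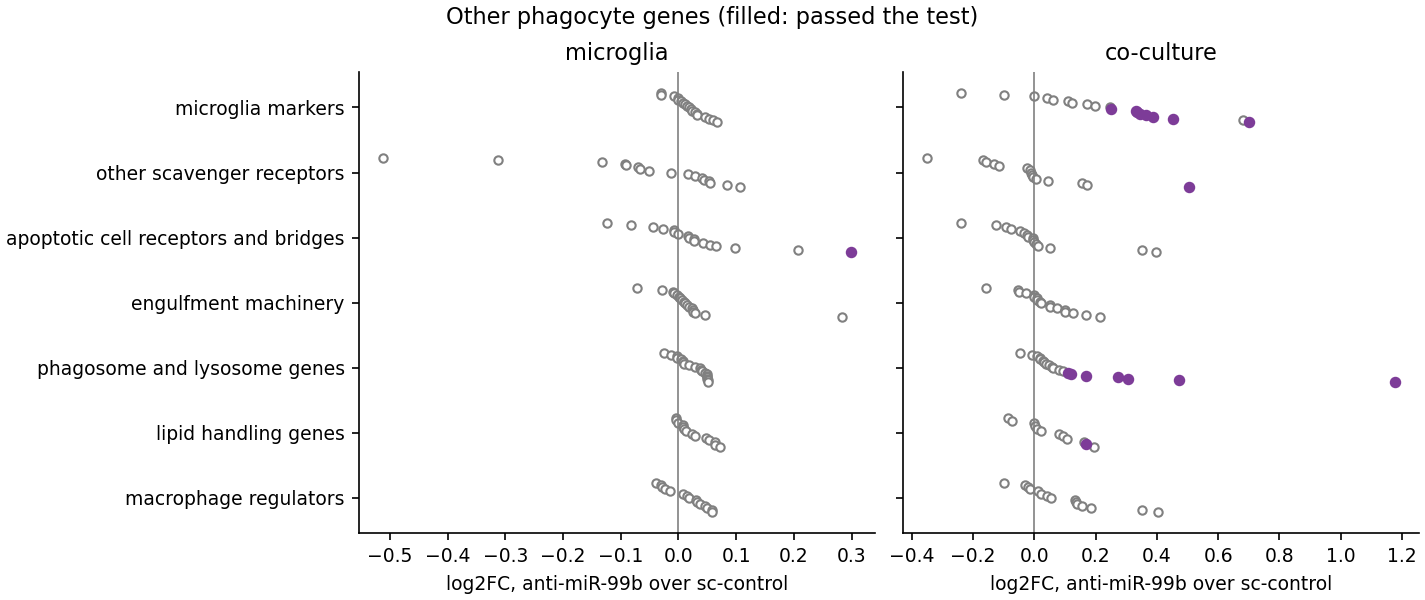
log2FC of anti-miR-99b over sc-control (x axis) of each tested gene in 7 lists (y axis), for the microglia on the left and the co-culture on the right. Filled points passed the test of the experiment. In the co-culture filled points lie among the microglia markers (8) and the phagosome and lysosome genes (7), and in the microglia 1 point is filled.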

How the data were processed

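Gene counts were analysed for 29 RNA-seq libraries of 3 experiments. The authors prepared TruSeq RNA libraries from polyadenylated RNA, sequenced single reads of 50 bases, aligned them with STAR (version 2.5.2b) to mm10, counted them per gene with featureCounts (version 1.5.1) and deposited raw counts without normalization. The annotation release and the strand setting are not given in the sources used here, so that counts of overlapping genes are uncertain. Symbols, exons and coordinates were taken from GENCODE M21 (GRCm38), which named 48349 of 48709 identifiers, and promoters and the miRNA from RefSeq.

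Groups, replicate numbers and lanes were read from the sample labels, and 0 columns were left without a sample. Each experiment was fitted alone on all genes in R 4.3.3 with edgeR 4.0.16 (filterByExpr, TMM, quasi-likelihood F test, no covariate), with Benjamini-Hochberg adjustment across all genes tested. Genes were called at an adjusted p under 0.1 and a log2FC beyond 0.2 in the PFC, 0.1 and 0.1 in the microglia, and 0.05 and 0.1 in the co-culture. The standard error was the size of the log2FC divided by the square root of F. Exact permutation tests, two-sided, were used for single values. Logarithms of single libraries used CPM + 0.5. Depth was 21324156 to 37901110 reads on genes per library. The fit was tested on simulated data.

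The members and all gene lists were chosen with earlier results of these data known. The genes named are the 8 members, Lyz1, genes whose exons overlap a member, up to 4 genes per list and experiment past the threshold with the smallest p, and the 3 closest genes to Marco, Lyz2 and Cd68. One result under this rule is not reported here. Siglech and Sall1 were chosen after their values were seen. Alternatives were DESeq2 1.42.0, RLE and upper-quartile factors, no filter, at least 10 counts in every library, 1 RUVs factor, the lane or replicate number as a block, another threshold, and each library left out.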

Additional observations from a re-analysis of the deposited data

Results flagged for a closer look

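Among the 32 groups of 4 to 10 libraries in which a member was looked at, 1 held a library far from the others, where chance alone gives about 1 in 20. In the co-culture, sc-control replicate 5 had the highest Cd163 level of 8 controls, at 0.248 CPM (6 reads), while the nearest control was at 0.105 CPM (4 reads). The gap was 0.68 of the range of the group. Cd163 was not tested in the co-culture, so that no comparison rests on this library.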

How the results depend on the processing

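The calls of members in the co-culture, which rest on the contrast that chose them, are not given. In the microglia, Marco was the member called under 14 of 17, and the count of 1 fell to 0 without sc-control replicate 4, without sc-control replicate 6 or without anti-miR-99b replicate 5, so that it ran from 0 to 1 over the libraries left out. In the PFC the count of members called was 0 under 12 of 16 alternatives, 1 (Lyz2) with no filter on low counts, and 0 to 1 over the libraries left out, with 1 (Lyz2) without sc-control replicate 4. The fits with no filter and without sc-control replicate 4 called 412 and 187 genes in all, against 15 as reported. The cause was not tested. Several members changed sign. Cd163 in the PFC ran from -0.20 to 0.13 over the libraries left out, Mrc1 in the microglia from -0.0091 to 0.047, and Cd163 in the microglia from -0.051 to 0.16. Over all its alternatives Mrc1 ran from -0.15 to 0.18 in the co-culture and Stab1 from -0.17 to 0.099. Relative to the summed microglia markers, Stab1 in the PFC turned from 0.15 to -0.12, Cd36 in the co-culture from 0.13 to -0.067 and Msr1 in the microglia from 0.02 to -0.0086. The log2FC of Marco in the co-culture ran from 0.24 to 0.45 over its alternatives, of Cd68 from 0.25 to 0.47 and of Lyz2 from 0.47 to 0.69, each lowest relative to the microglia markers.

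The replicate numbers in the labels were not taken as pairs, since libraries of equal number did not vary together (their deviations had a mean correlation of -0.12 for PFC mice, -0.04 for microglia and 0.01 for co-cultures). With the replicate block, which keeps only libraries with a number shared by both treatments, 2 members were called in the PFC (Lyz2 and Cd68), Marco was still called in the microglia, where Mrc1 was at -0.0067 and Cd163 at -0.18, and in the co-culture 5 microglia markers and 4 phagosome and lysosome genes were called in place of 8 and 7. With the PFC numbers swapped crosswise, which was chosen after seeing the data, 2 members and 643 genes were called, against 513 with the numbers as given and 15 with no block. The blocked PFC fit rests on 4 mice. The blocked microglia fit rests on 2 shared numbers and called 311 genes, against 73 with no block. Over all genes, the count called ran from 1 to 643 in the PFC (15 as reported), from 2 to 409 in the microglia (73 as reported) and from 95 to 520 in the co-culture (227 as reported). Depth limits Cd163 in both cultures and Cd36 and Msr1 in the PFC, which rest on at most 33 reads per library.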
